A study of Mus musculus with 2 samples.

Results

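The genes described here were 10 chaperones and folding factors of the endoplasmic reticulum (ER), Hspa5, Hsp90b1, Hyou1, Dnajb9, Sdf2l1, Pdia4, Pdia6, Calr, Manf and Creld2, of the 32285 mouse genes listed for each library. They were picked by symbol, and they had been selected on their lower level in hepatocytes of the HKO library in an earlier look at the same data, so that difference is given below as a description. Mouse liver had been profiled by droplet-based single-cell RNA sequencing in 2 libraries, WT and HKO. HKO mice, labelled AlbCRE, lack miR-33 in hepatocytes because miR-33 loxP/loxP was combined with Cre recombinase under the hepatocyte-specific albumin promoter, and WT mice were their wild-type littermates. Whether the WT mice carried loxP alleles or Cre was not stated in the sources used here. Mice of both groups received a CD-HFD, a high-fat feed with no added choline that produces steatohepatitis, for 6 months from 8 weeks of age. Cells of 3 livers were pooled for each library, with hepatocytes and sorted non-parenchymal cells mixed 1 to 1, so there was 1 library per genotype and no replicate. The targeted miRNA has no entry of its own among the genes listed, so its loss could not be checked in these libraries. No test between genotypes could be made. Intervals below are 95% intervals of counting error only, except that of a median, which is taken from the spread among the genes.

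Proteins that enter the secretory pathway are folded in the ER by these chaperones, and hepatocytes, which secrete most plasma proteins, depend heavily on them. When unfolded proteins accumulate, the sensors Ire1 alpha (Ern1), Perk (Eif2ak3) and Atf6 start the unfolded protein response, and the transcription factors Atf6 and Xbp1 raise chaperone transcription. Hspa5, also called BiP, binds unfolded chains and keeps the sensors inactive, which makes its RNA a common readout of the response.

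Atf6 acts with the factor NF-Y at the ER stress response element, which is CCAAT and CCACG with 9 bases between them. RefSeq promoter windows of GRCm38.p6, from 250 bases before to 50 after the transcription start, were found for 8 of the 10 genes and not for Hyou1 and Manf. Read on both strands, the full element was in 5 of these 8 windows (Hspa5, Hsp90b1, Pdia6, Calr and Creld2) and in 39 of all 32851 windows, or 0.119%. Pdia4 held the element without its last base, a pattern that includes every full element and was in 0.365% of windows. Sdf2l1 and Dnajb9 held CCAAT and CCACG, each common on its own (37.4% and 32.8% of windows), but not at this spacing. The unfolded protein response element TGACGTGG and the second form of the element, ATTGG and CCACG with 1 base between them, were in none of the 8 windows (0.676% and 0.0365% of all windows). A match is a description of the sequence and not evidence of binding. Capitals below mark the 2 boxes of the element, read 5′ to 3′ on the strand of the gene, where CGTGG before ATTGG is the element on the opposite strand. They are shown because 5 of the 8 windows share this element. The Hspa5 stretch is chr2:34771840-34772089 (plus strand), Hsp90b1 is chr10:86705445-86705694 (minus), Pdia6 is chr12:17266461-17266539 (plus), Calr is chr8:84847045-84847123 (minus), Creld2 is chr15:88819490-88819568 (plus) and Pdia4 is chr6:47813572-47813649 (minus).
Hspa5: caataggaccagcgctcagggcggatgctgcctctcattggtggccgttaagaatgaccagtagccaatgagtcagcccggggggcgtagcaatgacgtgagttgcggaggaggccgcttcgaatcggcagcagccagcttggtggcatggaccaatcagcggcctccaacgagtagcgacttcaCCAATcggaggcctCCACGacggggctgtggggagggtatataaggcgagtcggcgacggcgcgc
Hsp90b1: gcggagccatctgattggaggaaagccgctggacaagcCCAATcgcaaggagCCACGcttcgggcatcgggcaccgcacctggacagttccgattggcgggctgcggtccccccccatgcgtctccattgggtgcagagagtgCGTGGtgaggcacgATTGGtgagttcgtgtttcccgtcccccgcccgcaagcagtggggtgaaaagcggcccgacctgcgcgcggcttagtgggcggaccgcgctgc
Pdia6: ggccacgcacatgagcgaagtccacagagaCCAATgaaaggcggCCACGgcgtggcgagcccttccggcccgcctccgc
Calr: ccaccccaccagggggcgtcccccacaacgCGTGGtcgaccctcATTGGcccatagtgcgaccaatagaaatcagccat
Creld2: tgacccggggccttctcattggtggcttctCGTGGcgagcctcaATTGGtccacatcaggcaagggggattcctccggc
Pdia4: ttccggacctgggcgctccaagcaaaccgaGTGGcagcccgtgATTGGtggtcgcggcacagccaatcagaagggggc
Distances are from the RefSeq start. In Hspa5 the element ended 47 bases before the start, in Pdia6 80, in Creld2 108 and in Calr 144. The GENCODE span of Hspa5 given below begins further upstream, so the Hspa5 element lies inside that span. Hsp90b1 held 2 elements, which ended 194 and 89 bases before the start.

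The miRNA removed in HKO hepatocytes, miR-33-5p, is shown with its seed (bases 2 to 8) in capitals. The complement of the seed in a 3′ untranslated region is a common form of target site. Its RefSeq locus in GRCm38.p6 is chr15:82198127-82198147 (plus strand).
miR-33-5p: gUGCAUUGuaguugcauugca
The complement of the seed, CAATGCA, was in none of the longest annotated 3′ untranslated regions of the 10 genes, which ran from 247 bases in Creld2 to 1626 in Manf. Over 21005 protein-coding genes it was in 7.12% of such regions, and Abca1, a known miR-33 target, held 3. Other forms of site and other parts of the transcripts were not searched, so direct targeting was not tested.

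In GENCODE M21 (GRCm38), the genes lie on 8 chromosomes. Hspa5 is at chr2:34771970-34777547, Hsp90b1 at chr10:86690209-86705509, Hyou1 at chr9:44379490-44392369, Dnajb9 at chr12:44205559-44210326 and Sdf2l1 at chr16:17130138-17132383. Pdia4 is at chr6:47796141-47813430, Pdia6 at chr12:17266545-17284770, Calr at chr8:84841850-84846934, Manf at chr9:106838312-106891979 and Creld2 at chr15:88819646-88826683. Rbm15b lies within the annotated span of Manf on the same strand, and Gm15344 and Gm25745 within that of Hsp90b1, so the split of UMIs among these genes is uncertain.

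Each droplet adds a barcode to the RNA it captures and a unique molecular identifier (UMI) to each molecule. The WT library held 30078 barcodes and 130451427 UMIs and the HKO library 20000 and 52563185. Most barcodes left after filters and doublet removal were in no cluster named as a non-hepatocyte class and under 2 times their library's commonest depth. These (20171 of 22601 in WT and 10310 of 15583 in HKO) were read as droplets of free RNA. Hepatocyte-like barcodes were likewise in no such cluster, but at no less than 2 times the commonest depth. Hepatocyte markers were not required for this class. It numbered 1909 barcodes in WT and 3696 in HKO, with a median of 20380 and 4249 UMIs. The depth required was 5140 UMIs in WT and 1625 in HKO, so the HKO class reaches to shallower droplets and may hold more of free RNA. With at least 5000 UMIs in both libraries (1909 and 1655 barcodes) the median log2 ratio of the 10 genes, HKO over WT, was -0.98. All 8 hepatocyte markers were detected in both groups, at a summed level of 71880 CPM (counts per 1000000 UMIs) in WT and 58699 in HKO. Markers of other cells differed as well, with the summed erythroid markers at 738 and 2488, B and plasma cell markers at 9.02 and 65.6, T and NK markers at 6.65 and 10.8, neutrophil markers at 1.33 and 13.9, stellate markers at 13.3 and 27.1 and, lower in HKO, cholangiocyte markers at 176 and 110 CPM. The part of these cells in the results below was not tested. Barcodes shared by both libraries were not counted here. The labels name version 2 of the kit for both libraries, but the letters of the HKO barcodes begin as those of a later version do, and those of WT were not analysed here. A difference in chemistry, if there was one, cannot be told apart from the genotype.

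In hepatocyte-like barcodes all 10 chaperone genes were lower in the HKO library, 9 of them by 1.5-fold or more. Together they took 2748 CPM in WT and 1484 in HKO. Their median log2 ratio, HKO over WT, was -1.02, against -0.03 over the 7083 genes with a mean level of at least 10 CPM. The order-statistic interval of the first median, -1.49 to -0.79, describes the spread among the 10 genes and not between mice or libraries. Of those 7083 genes, 4.29% were lower by 1.5-fold or more and 2.46% higher. The genes were chosen by this contrast, so the count is not read against the background. UMI counts at the 3′ end are not scaled by gene length, and levels are compared below between libraries or groups of barcodes, not between genes.

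Hspa5, the Hsp70 chaperone BiP, was at 747 CPM (739 to 754) in WT and 399 (392 to 407) in HKO, a ratio of 0.535 (0.523 to 0.547). Hsp90b1, the ER Hsp90 chaperone GRP94, was at 729 CPM in WT and 417 in HKO (ratio 0.572, 0.560 to 0.585). Hyou1, which exchanges the nucleotide of Hspa5, was at 66.3 CPM in WT and 23.7 in HKO (ratio 0.357, 0.327 to 0.389). The HKO level was below the WT level for all 3.

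Of the co-chaperones of Hspa5, Dnajb9, a J protein that also restrains Ire1 alpha, was at 82.1 CPM in WT and 71.7 in HKO. Its ratio of 0.873 (0.826 to 0.923) was the closest to 1 of the 10 and the only one within 1.5-fold. Sdf2l1, a partner of ER J proteins, was at 23.6 CPM in WT and 6.28 in HKO and had the lowest ratio, 0.267 (0.225 to 0.314). Among the 7083 genes ordered from the lowest ratio, Sdf2l1 was number 3 and Dnajb9 number 1881.

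The disulfide isomerases Pdia4 and Pdia6 form and rearrange disulfide bonds. Pdia4 was at 167 CPM in WT and 80.1 in HKO (ratio 0.480, 0.457 to 0.504), and Pdia6 at 182 and 68.0 (ratio 0.373, 0.354 to 0.392). Calr, the lectin chaperone calreticulin that binds glycoproteins and calcium, was at 564 CPM in WT and 327 in HKO (ratio 0.580, 0.566 to 0.594).

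Manf and Creld2 code for ER proteins that are also secreted during ER stress. Manf was at 158 CPM in WT and 80.5 in HKO (ratio 0.509, 0.485 to 0.534). Creld2 was at 28.8 CPM in WT and 10.4 in HKO (ratio 0.361, 0.316 to 0.412). The intervals carry no error between mice or between preparations.

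**Figure D1:**
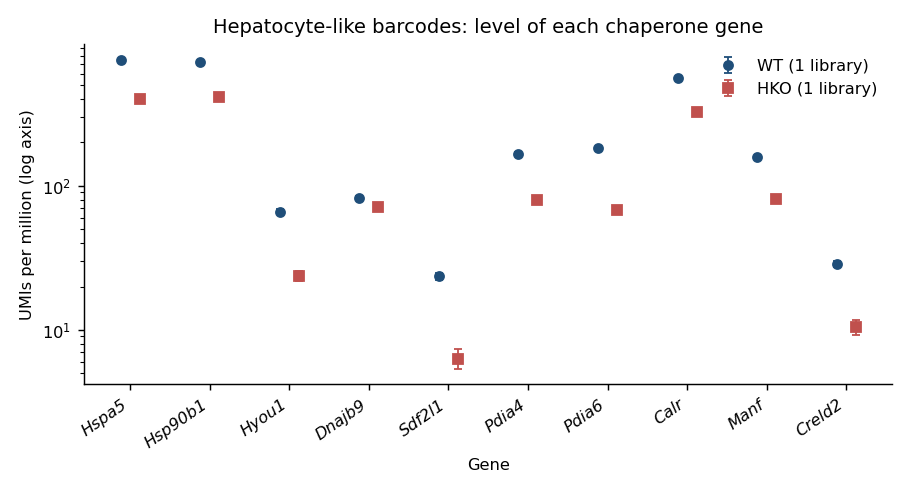
Level of each gene in hepatocyte-like barcodes, in CPM on a log axis, with 1 point per library (blue circles WT, red squares HKO) and bars for the 95% interval of counting error. Every HKO point lies below its WT point, from 6.28 against 23.6 CPM for Sdf2l1 to 71.7 against 82.1 for Dnajb9.

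Depth differed between the libraries, and the ratios were recomputed among barcodes of like depth. The median log2 ratio was -1.43 at 5000 to 10000 UMIs, -1.08 at 10000 to 20000 and -0.84 at 20000 to 40000. In these ranges 9, 7 and 7 of the 10 genes in turn were lower by 1.5-fold or more (backgrounds 7.28%, 6.67% and 9.85% of genes). The median mitochondrial share of UMIs was not alike within the ranges, at 7.42%, 17.4% and 14.7% in WT and 14.3%, 13.6% and 12.6% in HKO. Its part in the ratios was not tested. A given depth is also a larger multiple of the commonest depth in HKO than in WT, so free RNA was not matched. Over these ranges the ratio of Hyou1 stayed between 0.298 and 0.332 and that of Pdia6 between 0.349 and 0.388. Manf went from 0.356 in the shallowest range to 0.725 in the deepest, and Calr from 0.543 to 0.744. Dnajb9 was at 0.873 (0.742 to 1.03), 0.981 (0.879 to 1.10) and 0.931 (0.833 to 1.04), so that its interval included 1 in each range.

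Barcodes of free RNA depth gave the same direction. All 10 genes were lower in HKO by 1.5-fold or more (background 14.3% of 6973 genes), with a median log2 ratio of -1.30 against -0.22 over all genes. Hspa5 was at 676 CPM in WT and 354 in HKO (ratio 0.524), Sdf2l1 at 20.6 and 5.13 (ratio 0.249), and Dnajb9 at 86.3 and 50.9 (ratio 0.590). Dnajb9 thus passed 1.5-fold among these barcodes and not among hepatocyte-like barcodes.

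Hepatocytes along the lobule differ in function, from periportal cells that make urea and glucose to pericentral cells that metabolize drugs. Barcodes of each library were split into 3 groups of equal size by a score of pericentral minus periportal genes, none of which is a chaperone. Genes outside the score followed it, with Cyp2c37 higher in the pericentral group by 5.58-fold in WT and 27.0-fold in HKO, and Uroc1 lower, at 0.683 and 0.418 times its periportal level. The 10 chaperone genes did not reach 1.5-fold between the periportal and pericentral groups in either library. In WT, 4.07% of genes were lower and 5.37% higher by this fold, and in HKO 3.31% and 7.30%.

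In WT the pericentral over periportal ratios ran from 0.899 (0.877 to 0.922) for Hsp90b1 to 1.19 (1.05 to 1.36) for Creld2, with a median log2 ratio of 0.06. Hspa5 was at 776 CPM in the periportal group, 715 in the middle and 749 in the pericentral group. Sdf2l1 was flat, at 23.6, 23.5 and 23.6 CPM. Calr (518, 602 and 570 CPM) and Manf (141, 171 and 163 CPM) were lowest in the periportal group.

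In HKO the ratios ran from 0.743 (0.710 to 0.778) for Hspa5 to 1.02 (0.761 to 1.35) for Creld2, with a median log2 ratio of -0.16. Hspa5 was at 454, 374 and 338 CPM from the periportal to the pericentral group, and Hsp90b1 at 452, 403 and 376. Manf (88.8, 78.0 and 70.2 CPM) and Pdia6 (72.6, 68.1 and 61.3 CPM) had the same order. The intervals for Sdf2l1, Pdia4, Creld2 and Hyou1 included 1. Depth moved with the zones in HKO, with medians of 8082, 2858 and 3769 UMIs from periportal to pericentral, but little in WT (21246, 18745 and 21126). The median mitochondrial share moved with the zones too, at 12.8%, 5.32% and 9.50% in HKO and 14.1%, 7.34% and 11.96% in WT, and its part in the zone ratios was not tested. With the 3 groups taken within 10 ranges of depth the median log2 ratio was -0.22 in HKO and 0.05 in WT.

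The levels were also compared between the libraries within each zone. The median log2 ratio was -0.91 in the periportal group, -1.13 in the middle and -1.18 in the pericentral group, and 8, 9 and 9 genes were lower by 1.5-fold or more (backgrounds 6.89%, 7.73% and 4.30%). Dnajb9 (0.938, 0.862 to 1.02) and Calr (0.681) did not reach this fold in the periportal group. In the pericentral group the ratios ran from 0.260 for Sdf2l1 to 0.777 for Dnajb9.

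**Figure D2:**
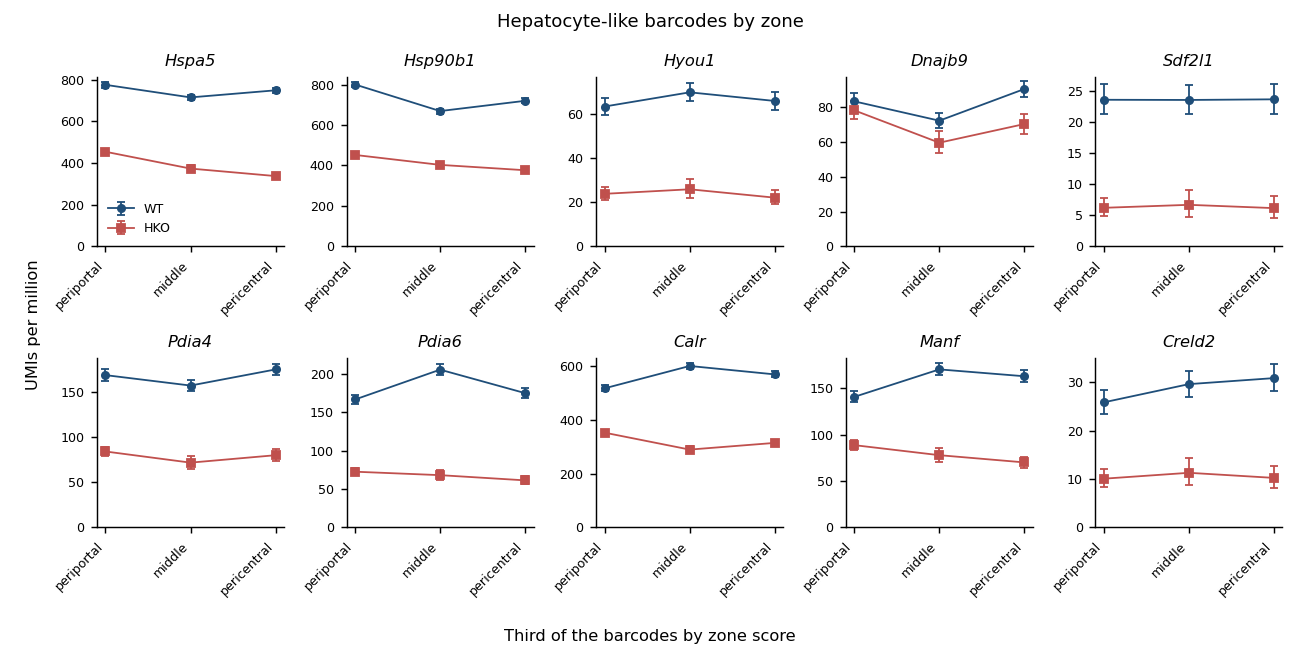
Level of each gene in CPM (vertical axes from 0) in the periportal, middle and pericentral groups of hepatocyte-like barcodes, with WT in blue circles, HKO in red squares and bars for the 95% interval of counting error. The HKO line lies below the WT line in every panel, and Hspa5 goes from 454 to 338 CPM across the HKO groups.

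The share of UMIs from mitochondrial genes varied widely among hepatocyte-like barcodes, from under 2% to the filter at 50%. It is commonly read as a sign of how intact a cell was when captured, and levels are therefore given here as counts per 1000000 non-mitochondrial UMIs. Summed over the 10 genes, the level in WT was 2556 in the bin under 2%, then 3143, 3393, 3659 and 4083 in the bins of 2 to 10%, 10 to 20%, 20 to 30% and 30 to 50%. In HKO the sums were 742, 1537, 2055, 2408 and 2238. The sums were thus lowest in the bin under 2% in both libraries.

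The genes followed different patterns over these bins. Hspa5 was at 651, 848, 893, 1111 and 1264 in WT and at 182, 390, 552, 712 and 651 in HKO. Hsp90b1 was at 588, 841, 956, 1022 and 1161 in WT and at 218, 425, 560, 660 and 728 in HKO. Both were highest in the 2 bins of highest share. Manf, in contrast, was at 183, 198, 200, 137 and 126 in WT and at 62.3, 99.4, 108, 106 and 66.8 in HKO. Sdf2l1 was at 25.2, 30.9, 31.2, 21.6 and 17.0 in WT and at 6.69, 8.85, 7.80, 7.02 and 2.61 in HKO. Dnajb9 was highest in the middle bin of both libraries, at 113 in WT and 107 in HKO. In that bin its ratio of HKO to WT was 0.953, the one nearest to 1 among the 10 genes.

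Comparing the highest bin with the lowest in WT, Pdia4 (2.07, 1.91 to 2.23), Hsp90b1 (1.97), Hspa5 (1.94) and Hyou1 (1.56) were higher by 1.5-fold or more, against 32.1% of all genes. Sdf2l1 (0.675, 0.506 to 0.886) and Manf (0.691, 0.625 to 0.764) were lower but did not reach 1.5-fold lower, as 19.1% of all genes did. The median log2 ratio of the 10 genes was 0.37 in WT (all genes 0.24) and 1.58 in HKO (all genes 0.43). Both medians depended on the scale: over all UMIs, mitochondrial ones included, the median was -0.29 in WT and 0.87 in HKO, and the summed WT level was 2531 in the lowest bin and 2563 in the highest. The WT median also depended on depth, since among barcodes of 10000 to 20000 UMIs the median was 1.09 in WT and 1.58 in HKO. In HKO, 7 genes were higher by 1.5-fold or more against a background of 43.6%, led by Hyou1 (4.45, 3.18 to 6.31), Pdia6 (3.82), Hspa5 (3.57) and Hsp90b1 (3.34). Sdf2l1 was lower in HKO at a ratio of 0.390 (0.118 to 1.02), which rests on few UMIs, against a background of 23.6%. Other RNA differed between the bins too, among it RNAs that are kept in the nucleus. Malat1 was at 7680 and 10492 in the lowest and highest bins of WT and at 11242 and 11597 in those of HKO, with 2889 in the middle bin of HKO. Neat1 went from 547 to 1173 in WT and from 916 to 1837 in HKO, and Kcnq1ot1 from 43.9 to 107 and from 45.6 to 101. Mlxipl went from 176 to 323 in WT and from 153 to 354 in HKO, and Gm26917 from 115 to 205 and from 126 to 214, while Meg3 was under 1 in each bin. Their part in the chaperone ratios was not tested.

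Within each bin of mitochondrial share the 10 ratios of HKO over WT were below 1, but the interval of Dnajb9 included 1 at 10 to 20% (0.953, 0.878 to 1.03) and at 20 to 30% (0.973, 0.812 to 1.16). The median log2 ratio was -1.88 under 2%, -1.20 at 2 to 10%, -0.91 at 10 to 20%, -0.74 at 20 to 30% and -0.95 at 30 to 50%. From the lowest to the highest bin, 10, 9, 8, 7 and 9 genes were lower by 1.5-fold or more, beside 14.6%, 5.52%, 4.11%, 10.6% and 4.46% of all genes. Calr was at 0.232 times its WT level in the bin under 2% and at 0.810 times in the bin of 20 to 30%. Pdia6 was at 0.170 and 0.449 in the same bins. HKO barcodes under 2% had a median of 2571 UMIs and WT barcodes 25183, so depth differed most in the bin where the ratios were lowest.

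**Figure D3:**
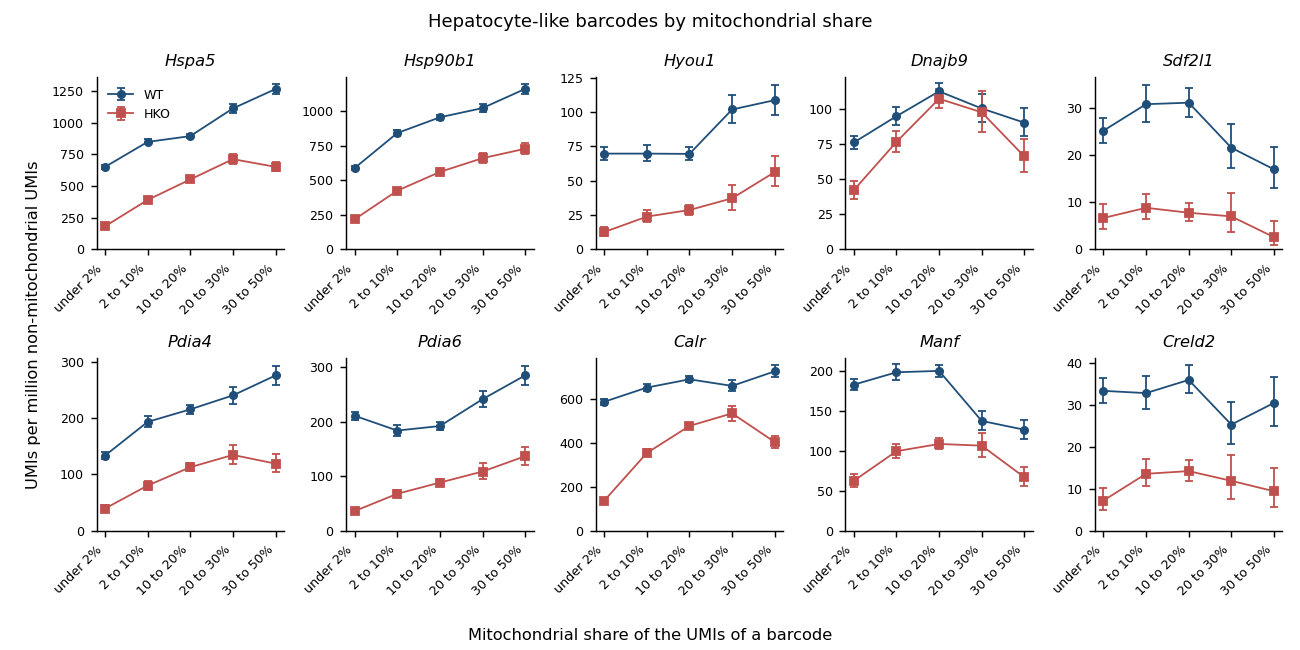
Level of each gene per 1000000 non-mitochondrial UMIs (vertical axes from 0) in 5 bins of mitochondrial share of hepatocyte-like barcodes, with WT in blue circles, HKO in red squares and bars for the 95% interval of counting error. Hspa5 goes from 651 to 1264 in WT from the lowest to the highest bin, while Manf goes from 183 to 126.

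To ask whether the genes varied together among barcodes of 1 library, hepatocyte-like barcodes with at least 5000 UMIs were ranked by Hspa5 within 10 ranges of depth and split into 5 groups of equal size, and the other 9 genes were compared between the highest and lowest group. Hspa5 itself, which set the ranking, was at 329 and 1343 CPM in these groups of WT and at 88.0 and 877 in HKO. In WT 8 of the other 9 genes were higher by 1.5-fold or more in the highest group, against 1.05% of 7165 genes. The ratios were 3.17 (2.63 to 3.83) for Creld2, 2.90 (2.57 to 3.27) for Hyou1, 2.22 for Hsp90b1, 2.17 for Sdf2l1, 2.01 for Pdia4, 1.90 for Manf, 1.75 for Pdia6, 1.66 for Calr and 1.36 for Dnajb9. The median log2 ratio was 1.01 (all genes -0.08). In HKO all 9 reached this fold, against 7.74% of 7039 genes, from 2.11 (1.37 to 3.33) for Creld2 to 3.34 (2.39 to 4.76) for Hyou1, with a median log2 ratio of 1.43 (all genes -0.07). Dnajb9 was at 2.22 (1.87 to 2.64) in HKO.

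The median mitochondrial share was 9.27% in the lowest and 13.01% in the highest group of WT, and 5.29% and 15.3% in HKO. The median zone score, lower in more periportal barcodes, was -0.168 and -0.278 in these groups of WT and -0.131 and -0.632 in HKO. The part of either in the ratios was not tested. Of the HKO barcodes in the lowest group, 51.0% had no Hspa5 UMI, against 4.37% in WT, so the groups of HKO divide a sparser count.

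**Figure D4:**
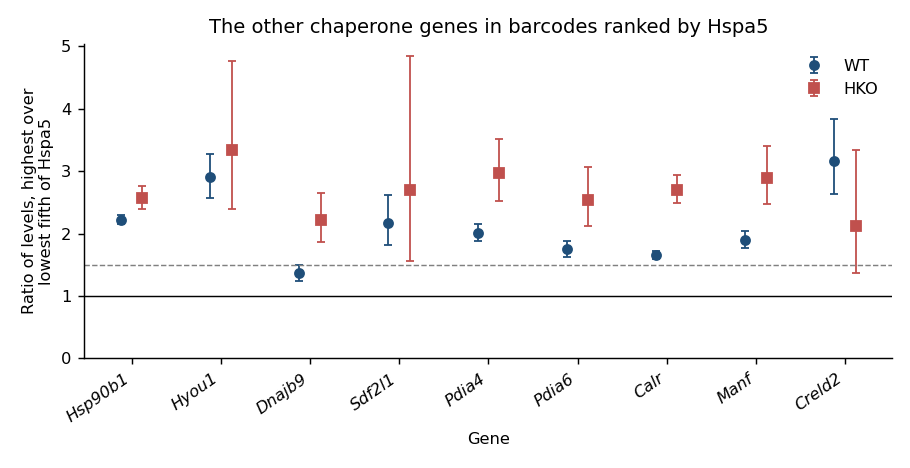
Ratio of levels between the highest and lowest of 5 groups of hepatocyte-like barcodes ranked by Hspa5 (vertical axis from 0, dashed line at 1.5), with WT in blue circles, HKO in red squares and bars for the 95% interval of counting error. All points lie above 1, from 1.36 for Dnajb9 in WT to 3.34 for Hyou1 in HKO.

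Genes whose pattern was most like that of Hspa5 were found over 18 groups of hepatocyte-like barcodes (2 libraries, 3 zone groups and 3 groups of mitochondrial share), with each library centred on its own mean, among 2631 genes of at least 50 CPM. Hsp90b1 was the most alike (r = 0.975), followed by the disulfide isomerase Pdia3 (0.956), the Golgi protein Tgoln1 (0.954) and the secreted plasma proteins F13b (0.953) and Klkb1 (0.952). Of the other chaperone genes, Pdia4 was number 18, Pdia6 number 64, Calr number 75, Dnajb9 number 236 and Manf number 529 (r = 0.175). Hyou1, Creld2 and Sdf2l1 were below the level required. The groups share libraries and depth, so these values describe the groups and carry no p-value.

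The other parts of the ER pathway were read from lists in the same hepatocyte-like barcodes, where 4.29% of all genes were lower and 2.46% higher by 1.5-fold or more. Among the sensors and transcription factors of the response, 2 of 8 measured genes were lower by this fold and the median log2 ratio was -0.28. These were Ern1, at 114 CPM in WT and 65.4 in HKO (ratio 0.573, 0.542 to 0.605), and Eif2ak3, at 24.9 and 15.3 (ratio 0.614). Mbtps2, a protease that releases Atf6, was at 0.924 (0.793 to 1.08). The RNA of Atf6 was at 0.811 (0.770 to 0.855) and that of Xbp1 at 0.877 (0.842 to 0.912), both within 1.5-fold.

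Of 18 other ER folding factors, 6 were lower by 1.5-fold or more, with a median log2 ratio of -0.49. Pdia3, the isomerase that works with calreticulin, was at 326 CPM in WT and 146 in HKO (ratio 0.448, 0.433 to 0.465), and the prolyl isomerase Ppib at 172 and 96.4 (ratio 0.559). The thioredoxin-related Tmx1 was at 1.03 (0.940 to 1.12). In ER-associated degradation, 3 of 15 genes were lower by this fold (median -0.22), led by the ubiquitin ligase Syvn1 (37.1 and 16.2 CPM, ratio 0.437) and Edem2 (0.619), whereas Vcp, the ATPase that extracts proteins from the ER, was at 1.11 (1.08 to 1.15).

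In translocation and glycosylation, 8 of 23 genes were lower by this fold (median -0.40). Ddost, a subunit of the oligosaccharyltransferase, was at 0.457 and Ssr2 at 0.581, against 1.05 for the translocon subunit Sec61g. Of 16 genes of ER to Golgi transport, 2 passed it (median -0.31), the cargo factors Mcfd2 (0.610) and Surf4 (0.664), and the coat subunit Sec23a was at 1.11. Of 7 measured genes of the integrated stress response, 4 passed it (median -0.72). Gdf15, a secreted stress hormone, was at 328 CPM in WT and 113 in HKO (ratio 0.344, 0.331 to 0.358), Fgf21 at 21.3 and 10.6 (ratio 0.497), and the transcription factor Ddit3 at 19.0 and 15.6 (ratio 0.823, 0.731 to 0.925).

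Lists outside the ER folding pathway were read in the same way. None of 12 cytosolic chaperones passed 1.5-fold (median -0.14), from Hspb1 at 0.693 and Hspa4 at 0.819 to St13 at 1.43. Of 9 mitochondrial chaperones and proteases 1 passed it (median -0.00), Clpx at 0.457, while Dnaja3 was at 0.765 and Grpel1 at 1.19. Of 20 abundant secreted proteins, the clients of the ER, 1 passed it (median -0.29), Serpinc1 at 0.605, followed by Vtn at 0.673, with Fga at 1.10. Among genes of the 10 lists with a mean of at least 10 CPM, none was higher by 1.5-fold or more and 32 were lower. Below that level Asns, Slc7a11 and Psat1 of the integrated stress response, named after their values were seen, were higher in HKO, on 3 and 11, 5 and 11, and 15 and 19 UMIs. Others below that level, named in the same way, were lower, with Derl3 at a ratio of 0.214 (0.132 to 0.329, on 201 and 23 UMIs), Atf6b at 0.560 (0.457 to 0.683), Sesn2 at 0.560 (0.434 to 0.717) and Ddit4 at 0.557 (0.392 to 0.779). The difference of the 10 chaperones from these lists was not tested, since they had been chosen by this contrast.

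Genes induced by tissue dissociation also differed, with 5 of 11 lower in HKO by 1.5-fold or more and a median log2 ratio of -0.58. Nr4a1 was at 53.5 CPM in WT and 26.1 in HKO (ratio 0.487), Zfp36 at 498 and 244 (ratio 0.489), and Fosb at 46.0 and 45.6 (ratio 0.992). Their part in the chaperone ratios was not tested.

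Outside the chaperone list, the full ER stress response element was in promoter windows of 32 other genes, of which 7 had a mean level of at least 10 CPM. This list was made after the values were known. All 7 were below 1 in HKO over WT, as were 54.1% of all 7083 genes, and their median log2 ratio was -0.41 (all genes -0.03). Of the 7, Syvn1 (0.437) was lower by 1.5-fold or more, beside 4.29% of all genes. Dnajc3, a J protein of the ER, was at 0.668 (0.643 to 0.693) and Canx, the membrane lectin chaperone calnexin, at 0.740 (0.718 to 0.763). The other 4 were Acnat2 (0.754), Hnrnpa3 (0.775), Pan2 (0.799) and Acacb (0.916), which are not known as ER chaperones.

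Cre driven by the albumin promoter acts in hepatocytes, and the other classes were therefore read as cells in which miR-33 was not targeted. Their barcodes also held hepatocyte RNA. Alb, a hepatocyte gene, was at 16906 CPM in WT and 8908 in HKO in T and NK-like barcodes, which corresponds to 46.5% and 32.4% of their UMIs as hepatocyte RNA. In these barcodes (200 in WT, 689 in HKO) 6 genes were lower in HKO by 1.5-fold or more, beside 18.2% of 11478 genes, and the median log2 ratio was -0.74. Hspa5 was at 477 CPM in WT and 295 in HKO (ratio 0.618), Pdia6 at 135 and 49.1 (ratio 0.363), and Creld2 at 11.1 and 11.2 (ratio 1.02, on 13 and 19 UMIs). With hepatocyte RNA scaled by Alb subtracted, Hspa5 was at 235 CPM in both libraries. The median log2 ratio was -0.24 over 9 genes, without Creld2, which had nothing left in WT. Of these 9 genes 6 were below 1, the lowest Pdia6 (0.421) and Pdia4 (0.463). The 3 above 1 were led by Hyou1 (2.57, with 2.77 WT UMIs left) and Sdf2l1 (1.34). With the free RNA profile subtracted the median was -0.03 over 8 genes, without Creld2 and Hyou1, which had nothing left in WT and 12.1 and 10.02 CPM left in HKO. With these genes ranked as the highest ratios the medians over 10 genes were -0.12 and 0.10, so no direction is read here.

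In endothelial-like barcodes (106 in WT, 189 in HKO) 9 genes were lower by 1.5-fold or more, beside 17.1% of 9822 genes, with a median log2 ratio of -0.98. Hsp90b1 was at 724 CPM in WT and 377 in HKO (ratio 0.522) and Hspa5 at 517 and 301 (ratio 0.582). Dnajb9, at 69.4 and 58.1, was again the one within 1.5-fold, and the intervals of Dnajb9 and Sdf2l1 (9 and 3 UMIs) included 1. Hepatocyte RNA scaled by Alb came to 44.9% and 32.3% of UMIs. Subtracting it left all 10 genes below 1 and a median of -0.82. Hsp90b1 was then at 705 and 352 CPM, and Hspa5 at a ratio of 0.773, within 1.5-fold. Subtracting the free RNA profile left 8 genes below 1 and a median of -0.59, with Hspa5 at 0.752. Dnajb9 (1.14) and Manf (1.002) were then above 1.

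Macrophage-like barcodes (97 in WT, 221 in HKO) differed less. They joined a cluster led by Mmp12, Cd5l and Clec4f (19 in WT, 91 in HKO) and another led by Wfdc17 and Ccl6 (78 and 130). The make-up of the class thus differed between the libraries, and its part in the ratios was not tested. Only Pdia4 (124 and 67.3 CPM, ratio 0.544) was lower in HKO by 1.5-fold, beside 20.9% of 10508 genes, and the median log2 ratio was -0.37. Of the 99 WT UMIs of Pdia4, 17.2% came from 1 barcode. Hspa5 was at 662 and 514 CPM and Hsp90b1 at 805 and 648. The ratios of Sdf2l1 (0.914), Dnajb9 (0.932), Creld2 (0.731) and Hyou1 (0.704) had intervals that included 1. Here hepatocyte RNA came to 58.2% of UMIs in WT and 23.8% in HKO. Subtracting it left 4 of the 10 genes above 1, Dnajb9 (2.24), Hspa5 (1.09), Pdia4 (1.08) and Hyou1 (1.01), with a median log2 ratio of -0.15. Subtracting the free RNA profile left 7 above 1, with a median of 0.08. The highest were Dnajb9 at 5.09, with only 3.88 WT UMIs left, and Pdia4 at 1.89. The direction in these barcodes thus depended on the subtraction. In barcodes with markers of macrophages, stellate and endothelial cells together (22 and 91), 3 genes were lower by this fold, beside 15.8% of genes (median -0.54). The median was -0.39 with hepatocyte RNA subtracted and -0.37 with the free RNA profile subtracted. In B-like barcodes (31 and 159) 8 genes had enough UMIs and 6 of them were lower by this fold, beside 22.6% of genes, with Hspa5 at 400 and 236 CPM. Hepatocyte RNA came to 49.4% and 36.6% of their UMIs, and subtracting it left 5.40 of the WT UMIs of Hspa5 and 7.93 of those of Hsp90b1. After it the median log2 ratio was 0.07, and after subtracting the free RNA profile it was 0.77. No direction is read from so few UMIs. Sdf2l1 had no UMI in the WT B-like barcodes, and no fold is given.

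**Figure D5:**
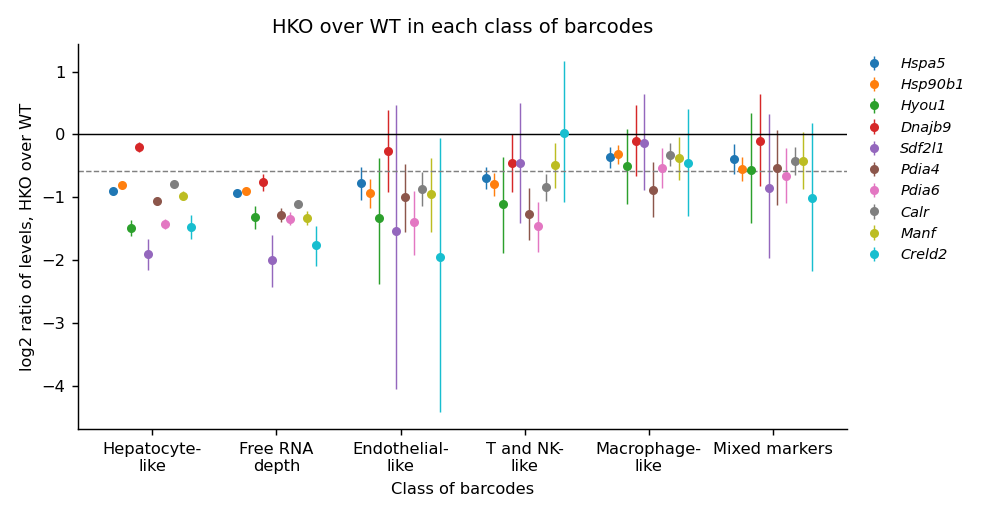
The log2 ratio of levels, HKO over WT, of each gene in 6 classes of barcodes, with 1 color per gene, bars for the 95% interval of counting error, a solid line at 0 and a dashed line at 1.5-fold lower. The medians go from -1.30 at free RNA depth and -1.02 in hepatocyte-like barcodes to -0.37 in macrophage-like barcodes.

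Barcodes led by Jchain, Igha and Igkc, genes of antibody-secreting plasma cells, numbered 3 in WT and 8 in HKO. Hsp90b1 was at 4135 CPM in WT and 3368 in HKO, Hspa5 at 1267 and 1392, Pdia4 at 634 and 688, Manf at 550 and 718, Sdf2l1 at 300 and 210, and Creld2 at 250 and 239. Calr was at 500.2 and 554, Pdia6 at 333 and 224.5 and Hyou1 at 117 and 74.8. Dnajb9 was at 50.02 and 269 (ratio 5.39, 1.57 to 28.5), on 3 and 18 UMIs. The median log2 ratio was 0.03. With so few barcodes these values describe single cells and not the genotypes.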

How the data were processed

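For both libraries the authors deposited UMI counts of each gene in each barcode, as whole numbers with no normalization, written by Cell Ranger 7.1.0 per the file headers and made against mm10 per the submitters' processing notes, which also name Seurat 3. Whether introns were counted is not given in the sources used here. The genes and gene lists were chosen with earlier results of these data known.

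Barcodes with at least 500 UMIs, at least 300 genes and at most 50% mitochondrial UMIs were kept (29620 WT, 18247 HKO). The Scrublet threshold marked 0 barcodes, so the top 0.8% per 1000 barcodes by doublet score were left out in each library (7019 WT, 2664 HKO, of which 148 and 49 had at least 5000 UMIs). Clusters (scanpy 1.11.5, 2000 variable genes, 30 components, 15 neighbours, Leiden resolution 1) were named where at least 3 preset markers were detected. The commonest depth was 2570 UMIs in WT and 813 in HKO, and hepatocyte-like barcodes had at least 5140 and 1625. This threshold separates free RNA from cells only by depth.

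Counts were summed over barcodes and divided by the total of the group (CPM). Ratios have exact conditional binomial 95% intervals, which were tested on simulated counts. Levels have exact Poisson 95% intervals and medians order-statistic intervals of at least 95%, which were not tested in that way. Genes with a mean of 10 CPM (10 UMIs over both libraries in the smaller classes) entered a background. A fold of 1.5 was the limit for a count. In each library, zones were 3 equal groups by a score (mean z-score of pericentral minus periportal genes), and mitochondrial bins had edges at 2, 10, 20 and 30%. Named genes were the 10 chaperones, from each list the 2 lowest and the 1 highest ratio, and the 5 genes most like Hspa5. Other genes were named outside this rule, among them list genes below 10 CPM, genes with the promoter element, nuclear RNAs, zone markers, Atf6 and Xbp1. Promoter and miRNA sequences were from RefSeq (GRCm38.p6) and gene spans from GENCODE M21. With 1 library per genotype no p-value was computed. UMIs limit only counting error.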

Additional observations from a re-analysis of the deposited data

Results flagged for a closer look

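For Manf, Calr and Dnajb9 the zones ran in opposite directions in the libraries with intervals that excluded 1 in both. This difference was not tested, and how many of all genes did the same was not counted. In Pdia6, Pdia4, Hyou1 and Sdf2l1 the ratios also lay on opposite sides of 1, but at least 1 of the intervals included 1. Manf was higher in the pericentral group in WT, with a pericentral over periportal ratio of 1.16 (1.09 to 1.23), and lower in HKO, at 0.790 (0.713 to 0.875). Calr was at 1.10 in WT (1.07 to 1.13) and 0.892 in HKO (0.849 to 0.937). Dnajb9 was at 1.08 in WT (1.01 to 1.17) and 0.899 in HKO (0.810 to 0.998). Each library is 1 pool of livers, and the intervals hold counting error only.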

How the results depend on the processing

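The ratios of the 10 genes in hepatocyte-like barcodes were below 1 under the depth, doublet, scaling, mitochondrial, thinning and clustering alternatives, but that of Dnajb9 had an interval including 1 in the 3 ranges of matched depth (0.981, 0.879 to 1.10, at 10000 to 20000 UMIs). Ratios stayed between 0.298 and 0.365 for Hyou1 over 12 settings, but ran from 0.182 to 0.420 for Sdf2l1, 0.219 to 0.540 for Creld2 and 0.356 to 0.725 for Manf. At a fold of 2 the count was 5 of 10, and 66 of 7083 genes passed that fold. Among all genes, 304 were lower by 1.5-fold at a minimum of 10 CPM, 656 at 1 CPM and 4200 with no minimum. Alternatives chosen after seeing the data moved the median log2 ratio to -1.88 among barcodes under 2% mitochondrial share and to -0.74 at 20 to 30%. The median over mitochondrial bins in WT, 0.37, turned to -0.29 when mitochondrial UMIs were in the total (from 1.58 to 0.87 in HKO) and moved to 1.09 at 10000 to 20000 UMIs. With 3 in place of 5 groups of Hspa5, the HKO median was 1.09. Subtracting hepatocyte RNA moved the T and NK-like median from -0.74 to -0.24, and subtracting the free RNA profile moved it to -0.026 (over the genes with a WT residual) and the endothelial-like median to -0.59. Beyond what each setting changes by construction, the cause was not tested. No paired analysis was possible because each genotype had 1 library. Counts limit Sdf2l1 most, with 165 UMIs in HKO hepatocyte-like barcodes.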
